A study of Mus musculus with 6 samples.

Results

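The DNA replication machinery is the group of proteins that licenses origins, opens the double helix, copies both strands and rebuilds chromatin behind the fork. It was followed here through 43 genes, taken by symbol from gene count tables of 34591 rows. All 43 symbols were found, and all 43 passed the filter on low counts that kept 16768 genes for testing. The genes were sorted by role into 6 steps: licensing (14 genes), helicase activation (6), polymerases (7), clamp and lagging strand (11), nucleotide supply (3) and chromatin assembly (2). Total RNA was sequenced from the brains of mice with WNT medulloblastoma, a childhood tumour of the hindbrain in which the WNT pathway is switched on. The labels call 3 libraries a control model and the other 3 an sh2-Ift88 model, and the series describes the latter as a knockdown of Ift88, whose product carries cargo into the primary cilium. A treatment note naming the knockdown stands on all 6 samples, controls included. The labels do not say the strain, age, tumour-driving alleles or control construct, nor whether the libraries came from separate animals, so p-values measure only the spread between these samples, which may be technical. Since the series is about cilia and the cell cycle, the comparison asks whether genes of S phase differ where Ift88 is targeted.

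In the G1 phase the origin recognition complex, Cdc6 and Cdt1 load the ring of Mcm2 to Mcm7 onto DNA, and geminin, the product of Gmnn, blocks Cdt1 after that. In S phase the kinase Cdc7, Mcm10 and the GINS complex turn the loaded ring into a moving helicase, primase and the polymerases copy the strands, the Rfc complex loads the Pcna clamp, and Fen1 and Lig1 join the pieces of the lagging strand. Many of these genes are switched on together before S phase by E2F factors, and their RNA is widely used as a sign of dividing cells in medulloblastoma and other tumours.

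The promoters are shown because E2F factors switch on many of these genes, as said above. Whether their sequence relates to the levels in these libraries was not tested. RefSeq promoter windows (GRCm38.p6, 250 bases before to 50 after a start) were at hand for 35 of the 43 genes. They were searched on both strands for 4 spellings of an E2F-like motif, TTTGGCGC, TTTCCCGC, TTTCGCGC and TTTGCCGC, whose matches may overlap each other. Of the 35 genes, 13 held at least 1 of these spellings (37.1%), against 704 of 27025 genes with a window (2.60%), a set that also includes noncoding genes. Among genes with a window, they stood in 7 of 12 licensing genes, 3 of 5 polymerase genes, 1 of 3 helicase activation genes and 2 of 10 genes of the clamp and lagging strand, and none of the 3 nucleotide supply genes or the 2 chromatin assembly genes did. Matches that lie before the start are shown for 6 genes, 5′ to 3′ on the strand of the gene, with the matched letters in capitals. Cdc6, Mcm5, Mcm6 and Mcm7 were chosen as licensing genes with such a match, and Orc3 and Pola1 as genes with a match whose levels ran differently from theirs. The stretches are chr11:98907983-98908050 (plus strand) for Cdc6, chr8:75109326-75109397 (plus) for Mcm5, chr1:128359715-128359845 (minus) for Mcm6, chr5:138172011-138172078 (minus) for Mcm7, chr4:34614946-34615013 (minus) for Orc3 and chrX:93632256-93632323 (minus) for Pola1, all on GRCm38.p6 and not on the build of the counts.
Cdc6: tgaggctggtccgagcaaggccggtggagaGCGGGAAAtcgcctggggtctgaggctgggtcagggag
Mcm5: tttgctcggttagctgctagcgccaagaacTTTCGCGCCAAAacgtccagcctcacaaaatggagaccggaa
Mcm6: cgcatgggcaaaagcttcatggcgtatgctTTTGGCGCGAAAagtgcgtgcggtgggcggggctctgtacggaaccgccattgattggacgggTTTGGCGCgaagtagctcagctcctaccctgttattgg
Mcm7: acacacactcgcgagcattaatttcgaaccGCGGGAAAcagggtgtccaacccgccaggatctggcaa
Orc3: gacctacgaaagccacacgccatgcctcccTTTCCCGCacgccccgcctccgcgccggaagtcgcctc
Pola1: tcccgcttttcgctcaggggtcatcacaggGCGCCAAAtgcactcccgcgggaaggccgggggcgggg

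Mcm5 and Mcm6 carry the motif as a near-palindrome, in which a match on each strand overlaps the other, and Mcm6 has a further match closer to the start. A match is a description of the letters and not a measured binding site.

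Total gene counts ran from 26802618 to 33772559 per library, and the lowest count of any of the 43 genes in any library was 172. Levels are given as CPM, the read count scaled to library size with TMM factors, which correct for differences in composition. These factors ran from 1.05 to 1.24 in 5 libraries and came to 0.598 in sh2-Ift88 3, where 10.2% of reads did not align. Some libraries stood apart: control 2, sh2-Ift88 2 and sh2-Ift88 3 had reads on 492, 564 and 387 of 1249 olfactory receptor genes, which brain tissue hardly uses, against 24 to 38 in the other 3. Ift88 itself measured 13.8, 19.7 and 13.7 CPM in the controls, against 14.7, 16.0 and 14.4 CPM in sh2-Ift88, a log2 fold change of -0.064 (standard error 0.27, interval 61.3% to 149% of control). The targeted gene therefore gave no check of the labels, and sh2-Ift88 below means the libraries so labelled. The 13 WNT target genes that mark this tumour summed to 3128 to 5834 CPM in the controls and 3862 to 5029 CPM in sh2-Ift88, and none of them was at 0 in all libraries. Exons of another gene overlap those of 15 of the 43 genes, among them Orc4, Mcm7, Rfc4, Rpa1, Fen1 and Chaf1a, and with the strand setting of the counts unknown their values are uncertain to that extent. In whole tissue, labelled here as mouse brain with a medulloblastoma model, fewer cells of a type and less RNA per cell cannot be told apart.

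Fitted changes of the replication genes were mostly below 0, but no single gene passed the test, and only sh2-Ift88 2 was low throughout. In sh2-Ift88 2 the median gene was at 68.6% of its mean over the 6 libraries. In sh2-Ift88 1 and 3 it was at 105% and 95.8%, against 100%, 92.8% and 134% in the controls. Many of these genes are switched on together, so counts of genes are not counts of separate observations. The fitted change was below 0 for 35 of the 43 genes (81.4%), against 51.3% of all genes tested, and above 0 for 8, against 48.7%. The median log2 fold change of sh2-Ift88 over control was -0.27, or 82.7% of the control level, against -0.012 over all genes. At an adjusted p of 0.05 in edgeR's quasi-likelihood test 0 of the 43 genes passed, as did 0 of all 16768 (0%), with the smallest adjusted p at 0.9995. At an unadjusted p of 0.05 the 4 genes Cdc6, Mcm10, Prim2 and Chaf1a were lower, against 1.26% of all genes lower at that level, and 0 were higher, against 1.97%. DESeq2 called 0 of the 43 genes at an adjusted p of 0.05, where it called 0.0826% of genes lower and 0.286% higher. All 3 sh2-Ift88 libraries lay below all 3 controls for 6 genes, Orc4, Cdc6, Mcm10, Pola2, Prim2 and Chaf1a, where the share over all genes was 3.69%. The opposite order held for 0 of the 43, against 4.7% of all genes. The 95% intervals were wide: those of 20 genes reached below 50% of the control level and those of 17 above 150%.

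**Figure D1:**
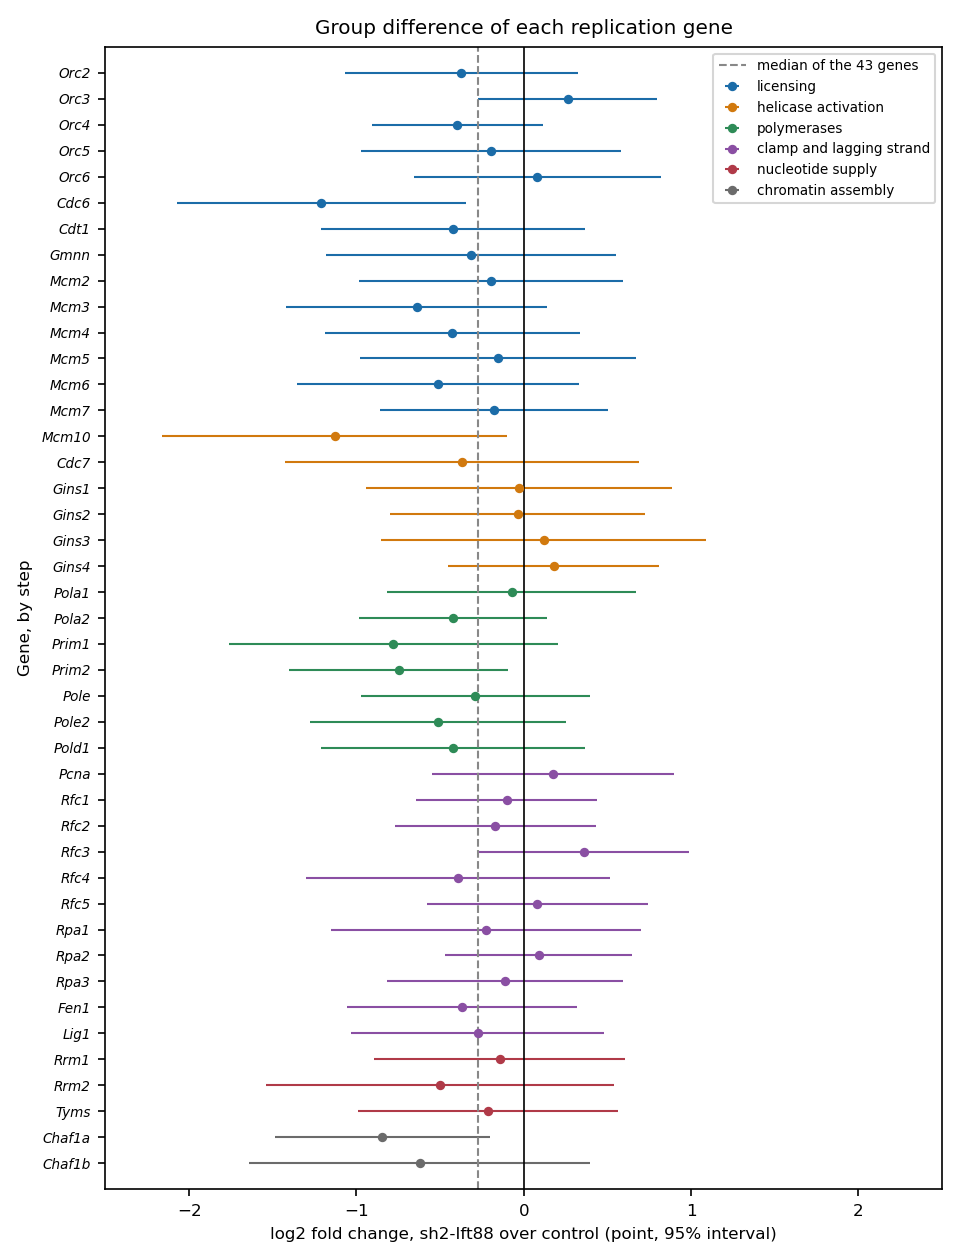
Log2 fold change of sh2-Ift88 over control for each of the 43 genes (x axis; points, with 95% intervals from edgeR's quasi-likelihood fit), ordered by step (y axis, colours). The points of 35 genes lie below 0 and the median, drawn as a dashed line, is at -0.27; only the intervals of Cdc6, Mcm10, Prim2 and Chaf1a lie wholly below 0.

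The difference rested largely on 2 libraries. Control 3 was the highest library for 27 of the 43 genes, where it was the highest for 23% of all genes, and sh2-Ift88 2 was the lowest for 27, where it was the lowest for 12.4% of all genes. In sh2-Ift88 2, 42 of the 43 genes lay below their own mean over the 6 libraries, the exception being Pola1, and the median gene was at 68.6% of its mean. This library also had the largest share of reads in no feature, 39.5%, and reads on the most olfactory receptor genes, 564. Whether that bears on its levels was not tested. In control 3 the median gene was at 134% of its mean, and 34 genes lay above it. In the other 4 libraries the median gene was between 92.8% and 105% of its mean, so sh2-Ift88 1 and sh2-Ift88 3 lay among the controls. Without control 3 the median log2 fold change was -0.084 and 27 genes were lower, and without sh2-Ift88 2 it was -0.15 with 28 lower. Leaving out any other library gave medians from -0.31 to -0.37.

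Within the 3 libraries with reads on olfactory receptor genes, control 2 stands alone against sh2-Ift88 2 and 3. The median there was -0.24 with 27 of the 43 genes lower, beside a median of 0.031 and 47.5% lower over all genes. Within the other 3, where sh2-Ift88 1 stands alone, it was -0.17 with 31 lower, beside -0.11 and 56.2% over all genes. Relative to the median of all genes, the 43 genes were at -0.28 in the former and -0.061 in the latter. With library totals in place of TMM factors 42 of the 43 genes were lower, but so were 76.3% of all genes, whose median moved to -0.33; relative to that median the genes were at -0.28.

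**Figure D2:**
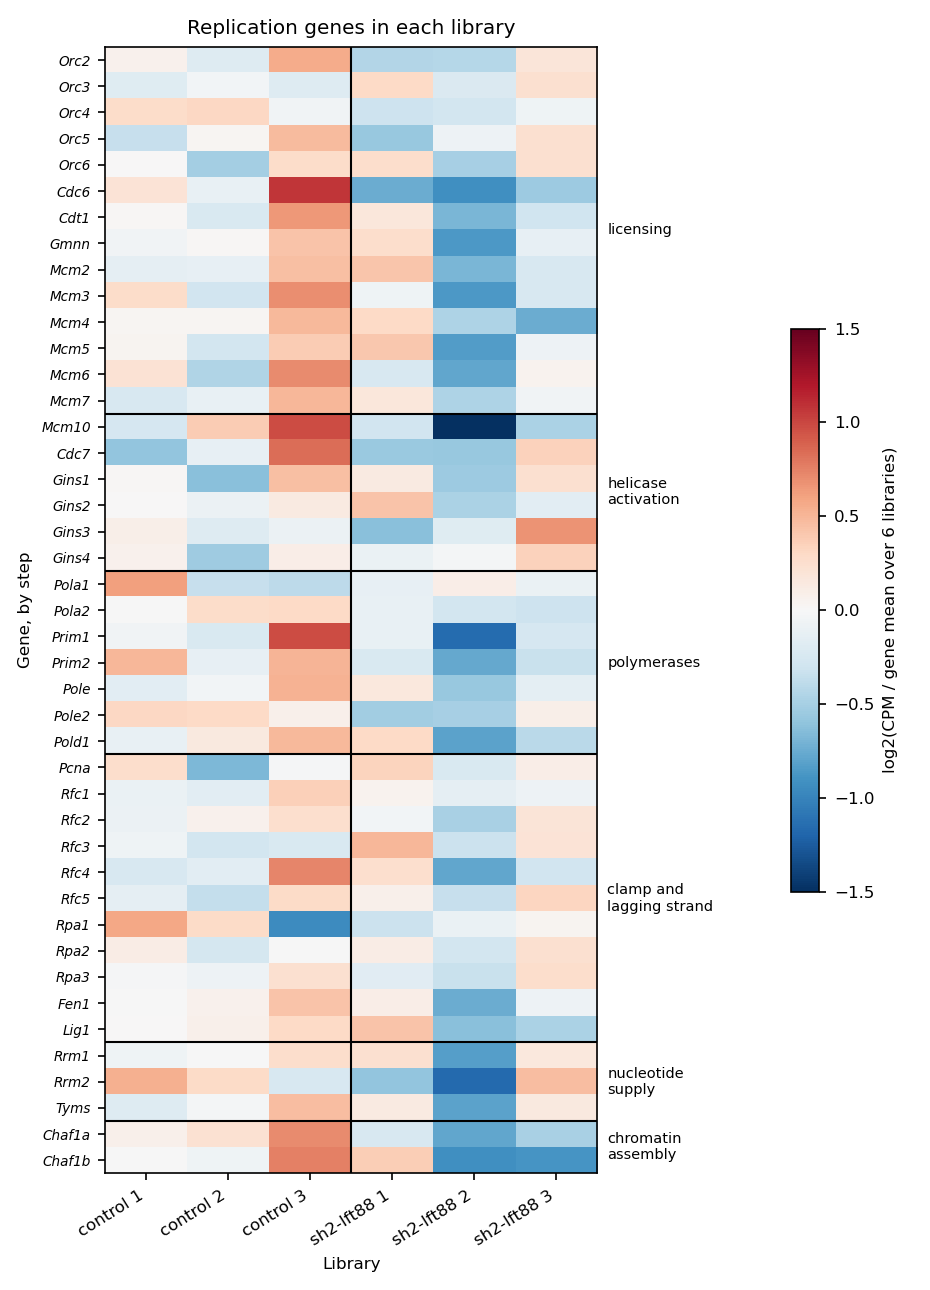
CPM of each replication gene in each of the 6 libraries (columns), as log2 of the ratio to the mean of that gene over the libraries (colour scale, red above and blue below the mean), with genes in rows by step. Control 3 is above the mean for 34 genes and sh2-Ift88 2 below it for 42.

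Among the licensing genes 12 of 14 had a fitted change below 0, with a median of -0.34, and Cdc6 differed most. Cdc6, the ATPase that helps to load the Mcm ring, measured 19.3, 15.5 and 35.2 CPM in the controls, against 9.99, 8.80 and 11.5 CPM in sh2-Ift88. The groups did not overlap, and the level was 43.2% of control with a 95% interval from 23.7% to 78.6% (log2 fold change -1.21, standard error 0.37, unadjusted p = 0.0125 and adjusted p = 0.9995 in edgeR's quasi-likelihood test). Its fold change stayed below 0 with each library left out, between -1.44 and -0.79, the latter without control 3.

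Of the origin recognition complex, which marks the sites where replication can start, Orc4 measured 77.0, 79.0 and 61.2 CPM in the controls, against 51.5, 52.5 and 61.0 CPM in sh2-Ift88. Control 3 and sh2-Ift88 3 thus nearly met, and the level was 76.0% of control with an interval from 53.3% to 108%. Orc3, by contrast, had a fitted change above 0: it measured 92.4, 102 and 91.5 CPM in the controls, against 129, 90.5 and 124 CPM in sh2-Ift88, with sh2-Ift88 2 below every control. Orc6 was also above 0, with a log2 fold change of 0.08, and Orc2 and Orc5 were at -0.37 and -0.19. The subunits did not keep a fixed proportion, since the count ratio of Orc3 to Orc2 was 1.25, 1.65 and 0.881 in the controls against 2.47, 1.72 and 1.54 in sh2-Ift88.

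Cdt1, which loads the ring together with Cdc6, measured 32.2, 27.0 and 50.0 CPM in the controls, against 35.9, 19.7 and 25.9 CPM in sh2-Ift88. Its inhibitor Gmnn averaged 13.7 ± 2.59 CPM in controls and 11.0 ± 4.04 CPM in sh2-Ift88 (mean ± SD, n = 3 each, as in all such pairs below). The genes of the loader and of its inhibitor ran nearly in step: the count ratio of Cdt1 to Gmnn lay between 2.16 and 3.00 in the 6 libraries, and the ranges of the groups overlapped.

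The 6 subunits of the Mcm ring, the motor of the replicative helicase, all had a fitted change below 0, from -0.64 for Mcm3 to -0.16 for Mcm5. Mcm3 measured 111, 75.0 and 148 CPM in the controls, against 87.2, 50.2 and 77.2 CPM in sh2-Ift88, with sh2-Ift88 1 and 3 above control 2. Mcm6, with the highest mean CPM of the step, measured 148, 93.3 and 208 CPM in the controls, against 108, 74.5 and 133 CPM in sh2-Ift88. Both thus overlapped between the groups, and their unadjusted p was 0.0938 and 0.194 in edgeR's test.

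Per kilobase of exon the ring subunits, which the complex holds in equal number, lay within 1.66-fold to 2.94-fold of each other in a library. Mcm7 was the highest of the 6 in 5 libraries, at 26.1 to 50.8 CPM per kilobase, and Mcm3 in control 1 at 36.7. Mcm4 or Mcm5 was the lowest in each library, between 11.6 and 26.9 CPM per kilobase. The 2.94-fold spread was in sh2-Ift88 3, where Mcm4 was at 11.8 CPM per kilobase and its count ratio to Mcm2 was 0.602, against at least 0.793 in the other 5 libraries. Of the subunits, Mcm5 kept the steadiest proportion to Mcm2, with a count ratio from 0.769 to 0.964.

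**Figure D3:**
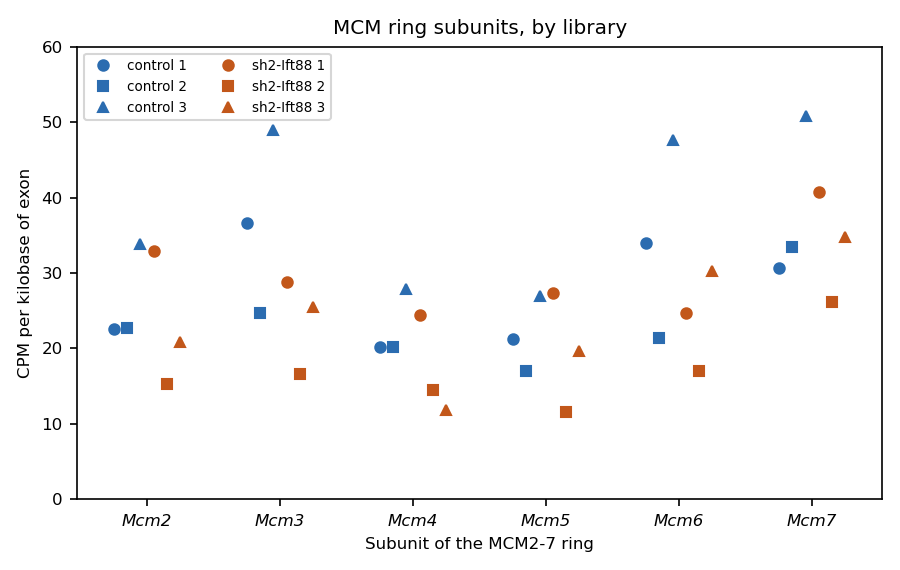
CPM per kilobase of exon (y axis) of the 6 subunits of the Mcm ring (x axis) in each library, with controls in blue, sh2-Ift88 in orange and circles, squares and triangles for libraries 1, 2 and 3 of a group. Mcm7 is the highest subunit in 5 of 6 libraries, and sh2-Ift88 2 (orange squares) is the lowest library for all subunits but Mcm4.

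Helicase activation had a step median of -0.032 and was split, with Mcm10 and Cdc7 lower than the GINS genes. Mcm10, which helps to start the loaded helicase, measured 19.2, 29.8 and 45.3 CPM in the controls, against 18.8, 7.83 and 16.5 CPM in sh2-Ift88. The groups did not overlap, though control 1 and sh2-Ift88 1 nearly met, and the level was 45.7% of control with an interval from 22.4% to 93.5% (log2 fold change -1.13, standard error 0.44, unadjusted p = 0.0359 and adjusted p = 0.9995 in edgeR's test). Mcm10 had the widest range of all 43 genes, with its highest library 5.78-fold above its lowest. With each library left out the fold change ran from -1.40 to -0.77, the latter without control 3.

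Cdc7, the kinase that fires origins, measured 11.4, 15.8 and 30.8 CPM in the controls, against 11.7, 11.6 and 21.7 CPM in sh2-Ift88, and its fold change of -0.37 turned to 0.13 without control 3. The 4 GINS genes, whose products form 1 complex with the helicase, lay close to 0. Gins1 and Gins2 had log2 fold changes of -0.028 and -0.037, and Gins3 and Gins4 of 0.12 and 0.18. Gins4, the most abundant of the step per kilobase, measured 34.2, 22.6 and 35.0 CPM in the controls, against 30.4, 32.1 and 41.4 CPM in sh2-Ift88. The intervals for the 4 genes were wide, from 52.1% of control at the lowest to 213% at the highest, so differences of that size are not shown to be absent.

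All 7 polymerase and primase genes had a fitted change below 0, with a median of -0.42, and the step median stayed between -0.51 and -0.31 with each library left out. It was also the only step of the 6 in which the mean level did not overlap between the groups: it was 5.14, 4.99 and 5.33 in the controls against 4.91, 4.45 and 4.79 in sh2-Ift88, as the mean of log2(CPM + 1). Prim2, the large subunit of primase, which makes the RNA primers, measured 43.2, 28.0 and 43.6 CPM in the controls, against 26.2, 18.0 and 24.3 CPM in sh2-Ift88. Its groups did not overlap, and it was at 59.6% of control with an interval from 37.9% to 93.9% (log2 fold change -0.75, standard error 0.28, unadjusted p = 0.0307 and adjusted p = 0.9995 in edgeR's test).

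Prim1, the catalytic subunit of primase, measured 33.7, 29.9 and 68.7 CPM in the controls, against 32.2, 15.7 and 29.2 CPM in sh2-Ift88. Its groups overlapped, and control 3 lay far above the other controls. The fold change of Prim1 was -0.78, and -0.31 without control 3. Pola2, the accessory subunit of polymerase alpha, varied little within a group: it measured 18.1, 21.9 and 22.3 CPM in the controls, against 16.8, 15.0 and 14.7 CPM in sh2-Ift88, without overlap. It was at 74.6% of control, with an interval from 50.5% to 110% and an unadjusted p of 0.121 in edgeR's test.

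The catalytic subunit of the same polymerase, Pola1, did not follow Pola2. Pola1 measured 92.2, 47.7 and 45.9 CPM in the controls, against 55.6, 64.5 and 56.5 CPM in sh2-Ift88, so that control 1 was the highest library and control 3 the lowest. The count ratio of Pola1 to Pola2 was 5.09 in control 1 and 2.18 and 2.06 in the other controls, against 3.31, 4.30 and 3.85 in sh2-Ift88. For polymerase epsilon, which copies the leading strand, Pole was at 62.0 ± 16.3 and 50.8 ± 12.5 CPM and its partner Pole2 at 11.8 ± 1.05 and 8.30 ± 2.12 CPM. Pold1, the catalytic subunit of the lagging strand polymerase, was at 43.4 ± 9.05 and 32.4 ± 12.9 CPM. Pole and Pold1 stayed in proportion, with a count ratio from 1.30 to 1.78.

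**Figure D4:**
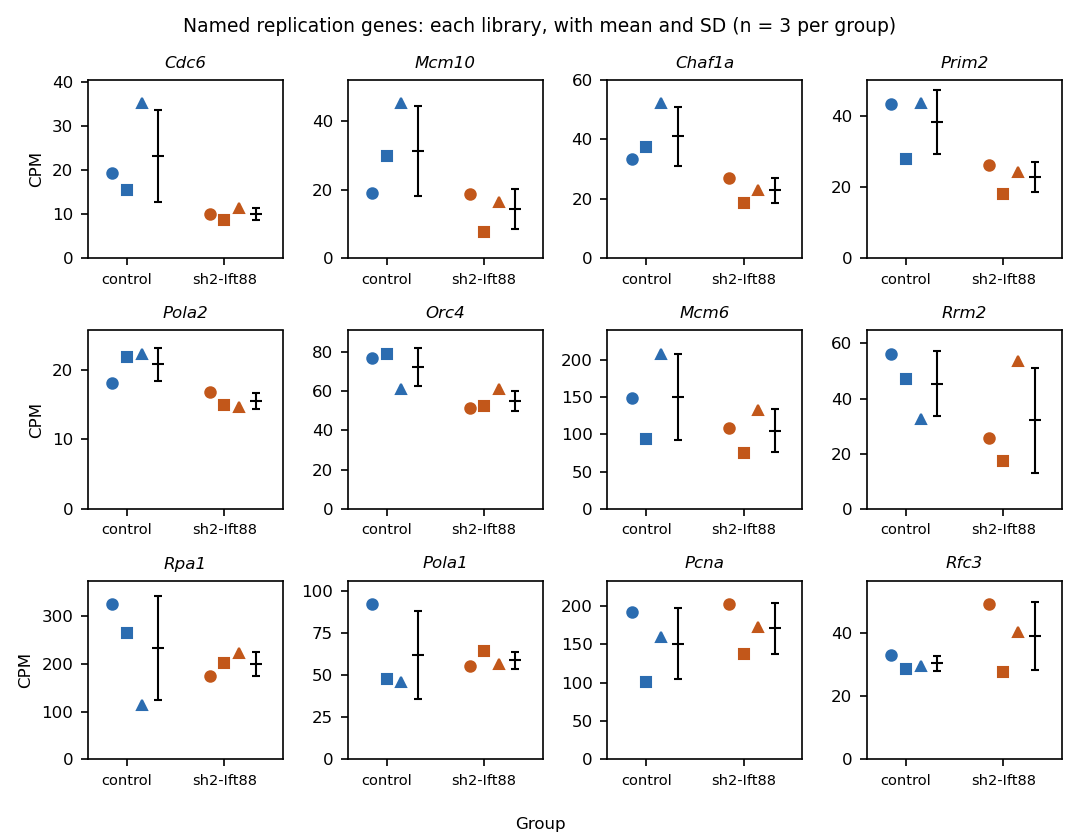
CPM (y axis, from 0) of 12 replication genes in each library, by group (x axis), with circles, squares and triangles for libraries 1, 2 and 3 of a group and the mean and SD beside them (n = 3 each). In Cdc6, Mcm10, Chaf1a, Prim2, Pola2 and Orc4 all sh2-Ift88 points lie below all control points, and in the other 6 genes the groups overlap.

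Of the genes of the clamp and of the lagging strand 7 of 11 had a fitted change below 0, with a median of -0.11, and the groups overlapped for each of the 11. Pcna, the sliding clamp and a common marker of dividing cells, was the highest of all 43 genes per kilobase, at 99.5 CPM per kilobase in controls and 112 in sh2-Ift88. In CPM it was at 193, 101 and 160 in the controls against 202, 137 and 173 in sh2-Ift88, with control 2 the lowest library (log2 fold change 0.18, interval 68.5% to 187% of control).

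The 5 subunits of the clamp loader pointed in different directions. Rfc3 measured 33.0, 28.5 and 29.4 CPM in the controls, against 48.9, 27.7 and 40.0 CPM in sh2-Ift88, with sh2-Ift88 2 below every control. Rfc4 measured 17.6, 18.7 and 34.5 CPM in the controls, against 24.7, 12.1 and 17.0 CPM in sh2-Ift88. Counts of Rfc3 over Rfc4 gave ratios of 1.88, 1.53 and 0.854 in the controls against 1.98, 2.28 and 2.36 in sh2-Ift88, so control 3 stood lowest and every sh2-Ift88 library above every control. This ratio was picked after its values were seen and was not tested. Rfc1, Rfc2 and Rfc5 had log2 fold changes of -0.10, -0.17 and 0.08.

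The trimer that coats single-stranded DNA showed a similar split in control 3. Rpa1, its largest subunit, measured 325, 265 and 113 CPM in the controls, against 175, 203 and 224 CPM in sh2-Ift88, so that control 3, the highest library for most members, was the lowest for Rpa1. Rpa2 was at 49.7 ± 6.51 and 52.9 ± 9.36 CPM and Rpa3 at 12.7 ± 1.49 and 11.7 ± 2.61 CPM. The count ratio of Rpa1 to Rpa2 ran from 2.22 in control 3 to 6.22 in control 2, and that of Rpa3 to Rpa2 only from 0.197 to 0.282. The fold change of Rpa1 was -0.23 and turned to 0.084 without control 1.

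Fen1, the nuclease that trims primers, measured 27.0, 28.2 and 36.3 CPM in the controls, against 29.0, 16.2 and 25.7 CPM in sh2-Ift88. Lig1, the ligase that seals the pieces, was at 49.5 ± 5.40 and 40.9 ± 17.3 CPM. In both genes sh2-Ift88 1 lay above 2 or more controls and sh2-Ift88 2 lay lowest.

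The 3 genes of nucleotide supply were each lowest in sh2-Ift88 2. Rrm1, the large subunit of ribonucleotide reductase, measured 129, 135 and 163 CPM in the controls, against 159, 76.1 and 151 CPM in sh2-Ift88. Without sh2-Ift88 2 its fold change of -0.14 turned to 0.12. Tyms, which makes thymidylate, measured 31.8, 35.6 and 50.0 CPM in the controls, against 40.1, 20.9 and 40.2 CPM in sh2-Ift88, and its fold change of -0.22 turned to 0.03 without that library.

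Rrm2, the small subunit that limits the enzyme in S phase, had another order of libraries. It measured 56.3, 47.2 and 32.8 CPM in the controls, against 25.6, 17.3 and 53.5 CPM in sh2-Ift88, so sh2-Ift88 3 lay above 2 controls. The count ratio of Rrm1 to Rrm2 ranged from 2.30 in control 1 to 6.22 in sh2-Ift88 1, with 4.97 in control 3 and 2.81 in sh2-Ift88 3, and overlapped between the groups.

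Chromatin assembly had the lowest step median, -0.73, from its 2 genes. Chaf1a, the large subunit of the complex that places histones behind the fork, measured 33.6, 37.4 and 52.2 CPM in the controls, against 27.1, 18.6 and 22.9 CPM in sh2-Ift88. The groups did not overlap, and the level was 55.7% of control with an interval from 35.7% to 86.9% (log2 fold change -0.84, standard error 0.27, unadjusted p = 0.0166 and adjusted p = 0.9995 in edgeR's test). Leaving out each library gave -1.01 to -0.64. Its partner Chaf1b measured 24.9, 23.8 and 42.1 CPM in the controls, against 32.3, 13.2 and 13.5 CPM in sh2-Ift88, with sh2-Ift88 1 above 2 controls.

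**Figure D5:**
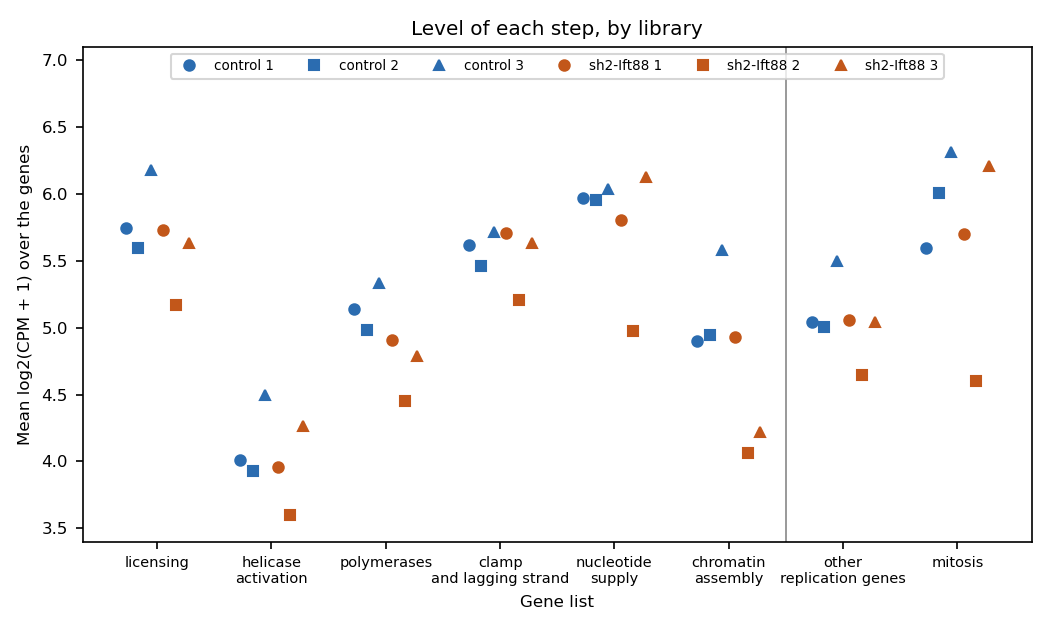
Level of each step, as the mean of log2(CPM + 1) over its genes (y axis), and of 2 further lists right of the line, for each library (controls blue, sh2-Ift88 orange, with circles, squares and triangles for libraries 1, 2 and 3). sh2-Ift88 2 is lowest in every list, and sh2-Ift88 3 is near the top for mitosis, at 6.21, but below all controls for the polymerases, at 4.79.

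The E2F-like spellings were found in genes with changes on both sides of 0. They stood in 1 of the 5 genes with a window among the 6 whose groups did not overlap, namely Cdc6, in 10 of the 28 with a window among those with a change below 0, and in 3 of 7 among those above 0, namely Orc3, Gins3 and Rfc3. Orc3 and Pola1, shown above with a match, were picked because their levels ran differently from those of Mcm5, Mcm6 and Mcm7. That contrast follows from the choice and is not a result about the matches.

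Other genes of the replication pathway were also mostly lower, with control 3 and sh2-Ift88 2 again at the extremes. Of 36 tested, 28 had a fitted change below 0 (77.8%, against 51.3% of all genes) and 8 above, with a median of -0.25, and 0 passed. Control 3 was the highest library for 18 of the 36 genes and sh2-Ift88 2 was the lowest for 17. The number lower was 22 without control 3 and 26 without sh2-Ift88 2. Mean levels in sh2-Ift88 1 and sh2-Ift88 3 were not below those in control 1 and control 2. All sh2-Ift88 libraries lay below all controls for 3 of these genes, where the share over all genes was 3.69%. The opposite order held for 2, against 4.7% of all genes, and the highest log2 fold change was 0.61. Wdhd1, which tethers polymerase alpha to the helicase, measured 24.6, 24.5 and 41.1 CPM in the controls, against 13.0, 15.0 and 14.6 CPM in sh2-Ift88. Its groups did not overlap, and its level was 47.2% of control (log2 fold change -1.08, standard error 0.29, unadjusted p = 0.00697 and adjusted p = 0.9995 in edgeR's test). Rnaseh2b, a subunit of the nuclease that removes RNA from DNA, measured 45.4, 28.3 and 29.3 CPM in the controls, against 23.8, 22.1 and 19.1 CPM in sh2-Ift88.

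Among 23 regulators of S phase 16 were below 0 and 7 above, with a median of -0.25. E2f3, an activating E2F factor, measured 24.9, 30.6 and 39.8 CPM in the controls, against 14.8, 21.7 and 21.0 CPM in sh2-Ift88, without overlap. Ccne2, a cyclin of S phase entry, measured 42.5, 35.6 and 77.6 CPM in the controls, against 32.2, 21.7 and 35.5 CPM in sh2-Ift88, with the closest libraries at 35.6 and 35.5. Of 13 genes of the replication checkpoint 11 were below 0, with a median of -0.49. Fancd2, which protects stalled forks, measured 44.8, 122 and 273 CPM in the controls, against 65.0, 26.7 and 63.6 CPM in sh2-Ift88, and Brca1 at 46.4 ± 11.7 and 32.9 ± 7.13 CPM. None of these genes passed in edgeR's test.

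Mitotic genes act later in the same cycle. Their mean level, like that of the replication genes, was highest in control 3 and lowest in sh2-Ift88 2. Between these the order of libraries differed. Of 25 mitotic genes 24 were below 0, with a median of -0.28, all 25 were lowest in sh2-Ift88 2 and 14 were highest in control 3. The proliferation marker Mki67 measured 198, 313 and 347 CPM in the controls, against 312, 140 and 324 CPM in sh2-Ift88, and Top2a at 438 ± 97.5 and 299 ± 143 CPM. Cenpe and Birc5, the 2 of smallest p, were at 73.6 ± 31.2 and 38.1 ± 17.4 CPM and at 32.9 ± 8.90 and 19.0 ± 8.71 CPM. The mean level of the replication genes minus that of the mitotic genes, on the log2(CPM + 1) scale, was -0.25, -0.78 and -0.66 in the controls against -0.39, 0.18 and -0.94 in sh2-Ift88. In sh2-Ift88 2 the mitotic genes were thus further down than the replication genes, and in sh2-Ift88 3 they stood higher relative to them than in any control.

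Markers of normal brain cells differed between the libraries that carried the difference. Of the 16 mature neuron genes 15 had a change below 0, with a median of -1.18. They summed to 57.0, 225 and 708 CPM in the controls, against 283, 196 and 37.0 CPM in sh2-Ift88, so control 3, high in replication genes, was also the highest in neuron genes. The 7 astrocyte genes summed to 39.8 to 605 CPM in the controls and 74.1 to 298 CPM in sh2-Ift88, again highest in control 3, and the 9 oligodendrocyte genes to 22.5 to 262 and 23.7 to 102 CPM. The 13 genes of microglia and macrophages summed to 185 to 238 and 93.8 to 275 CPM, and the 7 lymphocyte genes, 5 of them at 0 in some library, to 0.865 to 1.07 and 1.10 to 1.98 CPM. The 11 genes of hindbrain progenitors summed to 290 to 699 and 444 to 610 CPM, and the 7 of endothelium to 69.4 to 146 and 88.6 to 131 CPM. Both sums were lowest in control 3, though 5 of the 9 hindbrain genes tested were highest in it. These 2 lists, the 8 genes of fibroblasts and mural cells and the 5 of blood overlapped between the groups. No listed marker was at 0 in all 6 libraries, and the part of these cells in the replication result was not tested.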

How the data were processed

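The authors deposited raw counts per gene, 1 table for each library, from TruSeq Stranded Total RNA libraries, per the labels' protocols. BWA and mm9 are named in the submitters' processing notes. Counting program, annotation, strand setting: not given in the sources used here. Reads in no feature, 18.8% to 39.5% of those tallied, and 4 other closing tallies were left out. Replicate numbers follow accession order. Counts were fitted with edgeR 4.0.16 in R 4.3.3 (filterByExpr, TMM, glmQLFit with robust=TRUE, two-sided glmQLFTest, Benjamini-Hochberg over all 16768 genes at 0.05). Alternatives used DESeq2 1.42.0 and limma 3.58.1. The fit was also run on simulated counts that gave every gene the same dispersion and held no outlying library. That run does not show how the fit fares on these libraries. CPM use TMM-scaled sizes. Intervals are 95% intervals of the fit. Exon lengths are unions of basic GENCODE vM21 exons (GRCm38), used for lengths only. Exons of another gene overlap 15 of the 43 genes in that annotation, so their counts may be shared. Members and lists were chosen with earlier results of these data known. Per step, values in every library are given for the 3 genes of smallest p, the one of highest mean CPM and those without overlap between groups. Genes against the step median are named, as are 2 genes of smallest p per pathway list, Mki67 and Top2a. Values in every library were added for Orc3, Cdt1 and Pcna, for which this rule does not ask them. Of the pathway lists, Ticrr, Supt16 and Rad9a were not matched by symbol.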

Additional observations from a re-analysis of the deposited data

How the results depend on the processing

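No paired analysis was possible because the labels give no replicate numbers. No member was called by edgeR, DESeq2 or limma-voom in any setting, and their smallest adjusted p over the settings was 0.410, for Cdc6 in DESeq2. On library totals alone the median of the 43 genes was -0.60, that of licensing -0.68, of helicase activation -0.38, of polymerases -0.73, of the clamp and lagging strand -0.50 and of nucleotide supply -0.60. The mean level of the members became 5.95 in control 3 (from 5.65) and 4.56 in sh2-Ift88 3 (from 5.27), and Gins4 (-0.19), Orc3 (-0.075), Orc6 (-0.29), Gins3 (-0.33), Pcna (-0.15), Rfc5 (-0.31) and Rpa2 (-0.27) turned below 0. Over all genes DESeq2 called 45 higher and 13 lower, and edgeR without a filter on low counts 5 and 1, where the median of all genes moved to 0.12. With limma-voom Pola1 was at 0.0034 and Gins3 at -0.070.

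Some settings were chosen after seeing the data. A term for the libraries with olfactory receptor reads gave 0.015 for Pola1 and -0.061 for Gins3. Within those libraries Mcm6 was at 0.14, Cdc7 at 0.065 and Pola1 at 0.33. Within the others Gins4 was at -0.22, Rrm1 at 0.088, Gins3 at -0.66, Rfc5 at -0.061, Ift88 at 0.061 and the helicase step median at -0.44; 1 library stands alone in each, assumed to vary like the others.

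With each library left out in turn, Cdc7 ranged from -0.78 to 0.13, Gins4 from -0.0053 to 0.28, Pola1 from -0.26 to 0.33, Rpa1 from -0.56 to 0.084, Rrm1 from -0.35 to 0.12, Tyms from -0.40 to 0.03, Orc6 from -0.11 to 0.29, Gins3 from -0.36 to 0.35, Pcna from -0.050 to 0.39, Rfc5 from -0.12 to 0.28, Rpa2 from -0.054 to 0.22 and Ift88 from -0.16 to 0.13. Without control 3 the step medians were -0.13 (licensing), 0.11 (helicase activation), -0.31 (polymerases), -0.018 (clamp), -0.040 (nucleotides) and -0.47 (chromatin). Without sh2-Ift88 2 they were -0.22, 0.16, -0.40, -0.0069, 0.035 and -0.56. The fitted change stayed below 0 for 22 members with each library left out and for 17 in every setting tried. These settings share most of their libraries, and the same counts were not made over all genes. For the members named by the rule above only, 34 of 390 gene values over the settings changed sign. The cause was not tested. The lowest member count in any library was 172, and no two-sided exact permutation test of 3 against 3 libraries can give a p below 0.1.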
